A study of Drosophila melanogaster with 30 samples.

Results

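A group of 10 genes of the fly immune system was followed through a set of gene knockdowns: the Toll ligand spz, the receptor Tl, the inhibitor cact, the transcription factors dl and Rel, and the effectors vir-1, Tep2, Tep4, AttD and BomS5. The genes were chosen by name from the 10844 genes with a probe set of their own, each read by its brightest probe set over all arrays. Of the 10 genes, 9 had such a probe set and Tep2 was not analysed here. For the statistical test a probe set had to lie above the median of its own array in at least 3 arrays. This left 7 of the 9 genes (spz, cact, Rel, vir-1, Tep4, AttD and BomS5), while Tl and dl lay below the median on every array and are described by level.

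RNA was measured in Kc cells, a Drosophila line from embryos that resembles blood cells (hemocytes) and that the labels describe as tetraploid with a female karyotype. Cells were treated for 4 days with RNA interference (RNAi), in which added double-stranded RNA lowers the matching transcript. There were 10 groups with 3 Affymetrix arrays each, 30 in all. The control cells were given RNA transcribed from the plasmid pBSK+, which targets no fly gene by design, and the other groups were knockdowns of Mip40, Lin-52, Mip120, Mip130, Myb, RBF1 and RBF2 together (called RBFs), E2F2, L(3)MBT and E2F1. Most of these proteins are subunits or partners of the Myb-MuvB or dREAM complex, which binds chromatin and represses or activates transcription. Setting a knockdown beside the control asks which immune transcripts differ when that protein is depleted. Every group shares the cell line and the RNAi treatment, and the labels leave unsaid whether arrays within a group are separate cultures. The p-values therefore measure the spread between these samples, which may be technical.

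Flies recognise microbes through 2 main NF-kappaB pathways. In the Toll pathway a protease cascade cleaves Spätzle (spz), which binds Toll (Tl), and the signal destroys Cactus (cact), freeing Dorsal (dl) and Dif to enter the nucleus. In the Imd pathway receptors for bacterial peptidoglycan lead to cleavage of Relish (Rel), and both pathways switch on genes for antimicrobial peptides. Another route, JAK-STAT, induces vir-1 and stress proteins, and hemocytes secrete thioester proteins such as Tep4.

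Signals are given on a log2 scale, on which a difference of 1 is a doubling. Array medians ran from 6.445 to 6.581, and arrays of 1 group correlated at 0.986 to 0.997 over the 7794 tested probe sets. The 3 L(3)MBT arrays stood apart, with an interquartile range of 2.37 to 2.48 against 2.16 to 2.28 on the other arrays. The 23 control probe sets without a fly target (blanks) had means of 3.16 to 6.22 in control and 3.07 to 5.86 in L(3)MBT, and the median blank was 4.39 and 4.07. Of the 8 RNAi targets that could be tested, 8 were lower in their own knockdown, from E2f2 at 19.3% of control to l(3)mbt at 78.1%. The L(3)MBT group thus had the smallest fall of a tested target. Rbf stood below the filter at 96.9% and Myb was not analysed here. Of 14 hemocyte (plasmatocyte) markers 10 lay above every blank in control, among them Hml at 11.27, while NimC1 (3.45), Sr-CI (3.38), crq (4.78) and eater (5.41) lay within the blank range.

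Across the 10 groups all 7 tested genes differed (moderated F test in limma, adjusted p from 2.61e-19 for vir-1 to 1.16e-06 for cact). That test called 93.9% of all probe sets, so the count says little about these genes. Their group means spanned very different ranges: 3.90 on the log2 scale for vir-1, 1.80 for spz, 1.68 each for Tep4 and BomS5, 1.15 for AttD, 1.03 for Rel and 0.48 for cact. In the 9 comparisons with the control, 31 of 63 pairs of gene and knockdown were called at an adjusted p under 0.05, and 6 of these were changes of 2-fold or more. Calls among all 7794 tested probe sets ran from 451 in the Myb to 5723 in the L(3)MBT comparison. Standard errors (SE) of the changes ran from 0.0666 to 0.142.

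**Figure D1:**
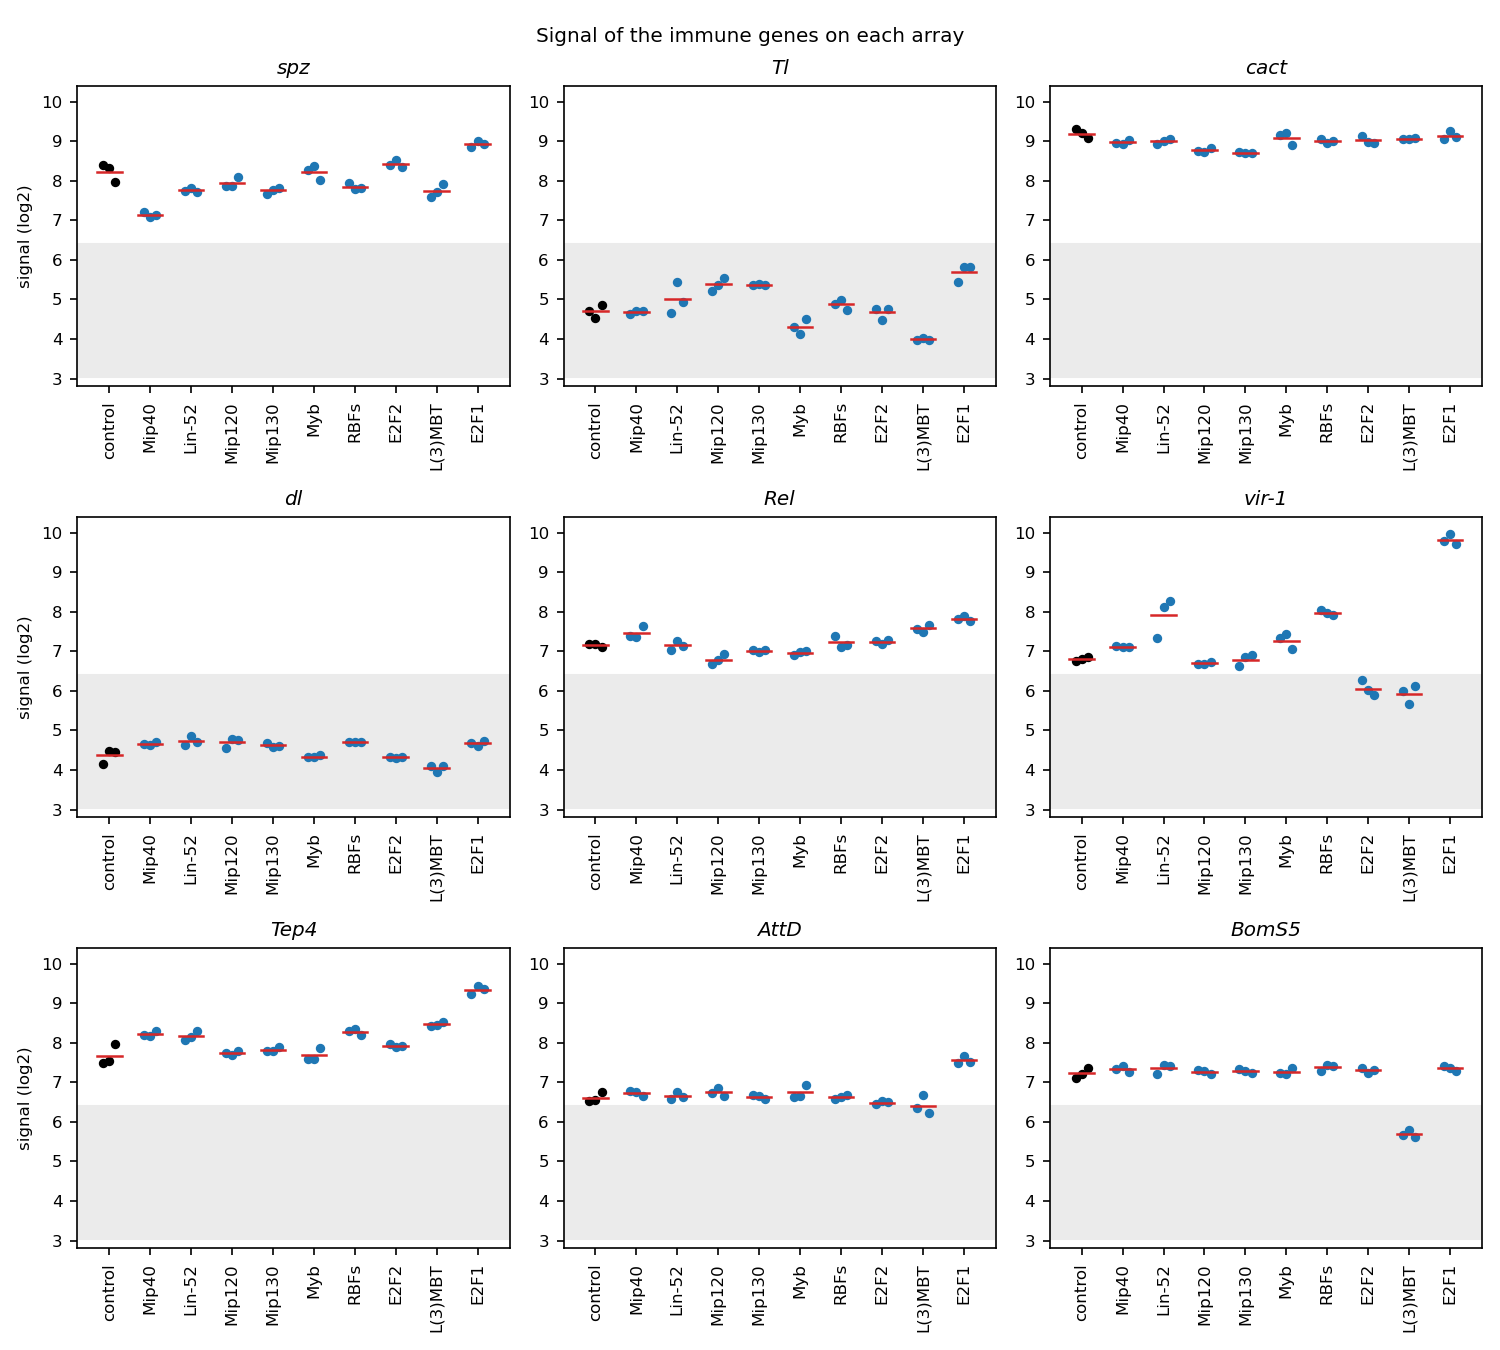
Signal of each gene on each array (vertical axis, log2) by group (horizontal axis), with control arrays in black, knockdown arrays in blue, the group mean as a red bar and the range of the blank probe set means over all groups as a grey band. vir-1 reached 9.72 to 9.97 in the E2F1 knockdown, BomS5 dropped to 5.62 to 5.79 in the L(3)MBT knockdown, and Tl and dl stayed inside the grey band.

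The ligand gene spz was lower in 6 knockdowns and higher in the E2F1 knockdown. Its control arrays read 8.40, 8.33 and 7.97, the Myb arrays 8.28, 8.37 and 8.03, and the E2F2 arrays 8.41, 8.54 and 8.34. The Mip40 arrays stood lowest at 7.22, 7.08 and 7.13, and the E2F1 arrays highest at 8.86, 9.02 and 8.94. Neither of these groups overlapped any other. In between lay Mip120 (7.88, 7.86 and 8.09), Mip130 (7.68, 7.77 and 7.82), Lin-52 (7.74, 7.83 and 7.72), RBFs (7.94, 7.79 and 7.81) and L(3)MBT (7.60, 7.72 and 7.92). From E2F2 down to Myb and Mip120, and from there down to L(3)MBT, each group overlapped its neighbour in the order of levels.

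Against the control mean of 8.23 ± 0.23 (SD, n = 3), spz fell by 1.09 (SE 0.0937) in the Mip40 knockdown, to 47.0% of the control signal (adjusted p = 3.37e-10). Smaller falls were called for L(3)MBT (-0.49, adjusted p = 3.67e-05), Mip130 (-0.48, 0.000522), Lin-52 (-0.47, 0.000413), RBFs (-0.39, 0.00259) and Mip120 (-0.29, 0.0265). The gene rose by 0.71 in the E2F1 knockdown (adjusted p = 1.57e-07). Changes of -0.01 for Myb and 0.20 for E2F2 (adjusted p = 0.119) did not pass. The Mip120 call was lost without control replicate 1 or 2 or Mip120 replicate 1 or 2, and its adjusted p ranged from 0.000949 to 0.201 over all alternatives.

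The receptor gene Tl gave a signal inside the blank range on every array, from 3.97 to 5.81. Control arrays read 4.72, 4.54 and 4.86, the E2F1 arrays 5.45, 5.81 and 5.81, and the L(3)MBT arrays 3.97, 4.03 and 3.98. Mip120 (5.22, 5.36 and 5.55) and Mip130 (5.36, 5.38 and 5.37) also lay above all control arrays. In a fit without the filter the differences from control were 0.98 for E2F1, 0.67 for Mip120, 0.66 for Mip130 and -0.72 for L(3)MBT (adjusted p = 8.68e-08, 0.000338, 0.000493 and 1.26e-05). Signals at this level cannot be told apart from those of probe sets without a target, and the median blank was itself lower in L(3)MBT; its part in the Tl value was not tested.

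The inhibitor gene cact moved least of the 7 tested genes. Control arrays read 9.30, 9.21 and 9.08, Mip120 arrays 8.76, 8.73 and 8.82, and Mip130 arrays 8.74, 8.70 and 8.70. These 2 knockdowns lay below every array of the other groups, which ran from 8.92 to 9.30 and overlapped their neighbours throughout. cact fell by 0.42 in the Mip120 knockdown and by 0.48 in the Mip130 knockdown (SE 0.0666, adjusted p = 2.02e-05 and 2.65e-06). Weaker falls were called for Mip40 (-0.21, adjusted p = 0.0279), Lin-52 (-0.20, 0.0331) and RBFs (-0.19, 0.0391). All 3 of these calls were lost without control replicate 1 or 2, with adjusted p up to 0.191, 0.211 and 0.234, and without Mip40 replicate 1 or 2, Lin-52 replicate 1 or 2, or RBFs replicate 2 or 3. The L(3)MBT value of -0.13 (adjusted p = 0.0803) passed under quantile (-0.36, 6.54e-06) and cyclic loess normalization (-0.32, 3.54e-05). So did E2F2, from -0.16 (adjusted p = 0.0721) to -0.25 (0.00318) and -0.20 (0.0141), while E2F1 (-0.06) passed under quantile alone (-0.14, 0.045). Cyclic loess ended the Mip40, Lin-52 and RBFs calls, and median centring those of Lin-52 and RBFs.

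Of the 2 transcription factor genes, dl lay in the blank range, at 3.94 to 4.87. Its control arrays read 4.16, 4.49 and 4.46, and in the fit without the filter differences from -0.33 (L(3)MBT) to 0.36 (Lin-52) were called in 7 of the 9 comparisons. Rel was measured above the blanks. Control arrays read 7.19, 7.19 and 7.11, E2F1 arrays 7.81, 7.89 and 7.78, L(3)MBT arrays 7.57, 7.48 and 7.68, and Mip40 arrays 7.40, 7.36 and 7.65. At the other end stood Mip120 with 6.67, 6.78 and 6.93, below all control arrays. The remaining groups were Mip130 (7.03, 6.99 and 7.03), Myb (6.90, 6.99 and 7.0), E2F2 (7.27, 7.18 and 7.29), RBFs (7.39, 7.12 and 7.17) and Lin-52 (7.04, 7.27 and 7.14).

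Rel rose by 0.66 in the E2F1 knockdown (SE 0.0766, adjusted p = 1.19e-08), by 0.41 in L(3)MBT (2.3e-05) and by 0.31 in Mip40 (0.00489), and fell by 0.37 in Mip120 (0.000654). The Mip40 call rested on replicate 3, the highest of its arrays: without it the adjusted p was 0.0636. For Myb the change of -0.20 had all 3 arrays below control but did not pass (adjusted p = 0.156).

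**Figure D2:**
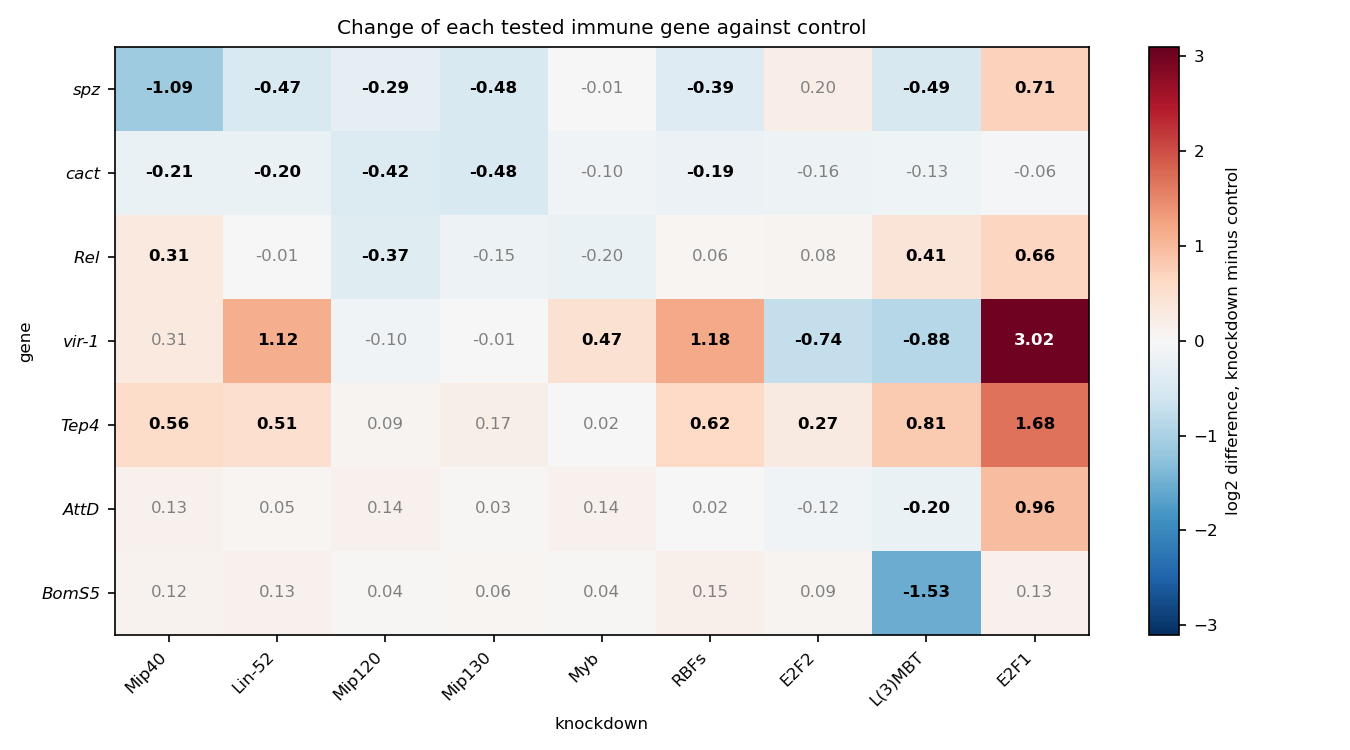
Log2 change of the 7 tested genes (rows) in the 9 knockdowns (columns), knockdown minus control group mean, with red for higher and blue for lower and called values in bold black or white. The darkest cell is vir-1 in the E2F1 knockdown at 3.02, and the deepest blue is BomS5 in L(3)MBT at -1.53.

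The effector gene vir-1, a transcript induced by viral infection, varied most. Control arrays read 6.76, 6.80 and 6.85, and E2F1 arrays 9.80, 9.97 and 9.72, above every other array. RBFs arrays read 8.04, 7.98 and 7.93, and Lin-52 arrays 7.35, 8.13 and 8.28, with replicate 1 well below the other two. Myb arrays read 7.33, 7.43 and 7.06 and Mip40 arrays 7.13, 7.11 and 7.11, all above control. Mip120 (6.69, 6.69 and 6.73) and Mip130 (6.62, 6.86 and 6.90) lay close to control. Lowest were E2F2 with 6.28, 6.03 and 5.89 and L(3)MBT with 5.99, 5.68 and 6.12, which overlapped each other and no other group.

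In the E2F1 knockdown vir-1 rose by 3.02 (SE 0.142), or 8.14-fold (adjusted p = 2.35e-17), from 6.81 ± 0.04 to 9.83 ± 0.13 (SD, n = 3). Further rises were 1.18 for RBFs (2.26-fold, adjusted p = 2.24e-07), 1.12 for Lin-52 (5.54e-07) and 0.47 for Myb (0.0451). It fell by 0.74 in the E2F2 knockdown (adjusted p = 0.000269) and by 0.88 in L(3)MBT (3.19e-06), where the group means of 6.06 and 5.93 lay below and just above the highest blank mean of the same group (6.24 and 5.86). For Lin-52 the change was 1.40 without the low replicate 1. With the replicate number as a block the Myb call had an adjusted p of 0.0542 over all arrays and 0.00104 within the 6 arrays. It was also lost without any 1 of the control replicates or without Myb replicate 1 or 2, with a range of 0.00104 to 0.699 over all alternatives. The Mip40 value of 0.31 (adjusted p = 0.142) did not pass, although its 3 arrays lay above all control arrays.

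A second probe set for vir-1 was dim, with signals of 3.28 to 4.60 inside the blank range. There the fit without the filter gave 0.60 for E2F1 (adjusted p = 2.18e-07) and -0.46 for L(3)MBT (9.04e-06), but -0.01 for Lin-52, 0.12 for RBFs, 0.12 for Myb and -0.04 for E2F2, none of which passed. The rises in Lin-52, RBFs and Myb and the fall in E2F2 therefore rest on the brighter probe set.

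Tep4, a secreted relative of complement proteins, was higher in 6 knockdowns and called lower in none. Control arrays read 7.48, 7.54 and 7.96, with replicate 3 above the other two. E2F1 arrays read 9.23, 9.43 and 9.37 and L(3)MBT arrays 8.43, 8.44 and 8.54, each apart from all other groups. RBFs (8.29, 8.36 and 8.20), Mip40 (8.20, 8.17 and 8.31) and Lin-52 (8.07, 8.16 and 8.30) overlapped one another and lay above control. E2F2 read 7.98, 7.90 and 7.91, Mip130 7.80, 7.79 and 7.89, Mip120 7.75, 7.69 and 7.80, and Myb 7.59, 7.58 and 7.88, all overlapping control.

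Tep4 rose by 1.68 in the E2F1 knockdown (SE 0.089), or 3.21-fold (adjusted p = 3.52e-16), and by 0.81 in L(3)MBT (4.21e-09). Rises of 0.62 for RBFs (4.1e-06), 0.56 for Mip40 (2.13e-05) and 0.51 for Lin-52 (7.4e-05) followed. The E2F2 rise of 0.27 (adjusted p = 0.0265) had arrays that overlapped control. It was 0.42 without control replicate 3 and was lost under quantile normalization and without control replicate 1 or 2 or E2F2 replicate 1 or 3, with adjusted p from 0.000295 to 0.174.

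AttD, of the attacin family of antibacterial proteins, rose in the E2F1 knockdown. Control arrays read 6.52, 6.56 and 6.75 and E2F1 arrays 7.49, 7.68 and 7.52, which overlapped no other group. The change was 0.96 (SE 0.0872, adjusted p = 8.9e-11). Outside E2F1 and L(3)MBT the arrays ran from 6.46 (E2F2) to 6.94 (Myb), and no change was called. L(3)MBT arrays read 6.34, 6.67 and 6.23 and overlapped control. Their change of -0.20 was called (adjusted p = 0.043) but was -0.09 under quantile normalization, -0.10 with each array centred on its median and -0.08 under cyclic loess (adjusted p = 0.304, 0.302 and 0.362). It was -0.13 without control replicate 3, -0.10 without L(3)MBT replicate 3 and -0.32 without L(3)MBT replicate 2, and the call was also lost without L(3)MBT replicate 1.

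BomS5, a short secreted peptide of the Bomanin family that Toll signalling induces, changed in the L(3)MBT knockdown. Control arrays read 7.11, 7.22 and 7.36, and all arrays of the 8 other knockdowns lay between 7.20 and 7.44, each group overlapping its neighbours. L(3)MBT arrays read 5.68, 5.79 and 5.62, far below the rest. The change was -1.53 (SE 0.068, adjusted p = 1.43e-17), a 2.90-fold lower signal, from 7.23 ± 0.13 to 5.69 ± 0.08 (SD, n = 3). It stayed between -1.60 and -1.39 over all alternatives, with -1.39 under quantile normalization. The L(3)MBT mean lay within the blank range, so the size of the change in transcript level is not settled by it. The median blank was 4.39 in control and 4.07 in L(3)MBT. The part of that shift in the BomS5 value was not tested, so the change is not given as a bound. A value of 0.13 in E2F1 (adjusted p = 0.101) did not pass, and was called at 0.17 to 0.19 under quantile, median and cyclic loess scaling and at 0.20 without control replicate 3. Values of 0.15 in RBFs and 0.13 in Lin-52 were called at 0.22 without control replicate 3 and at 0.20 without Lin-52 replicate 1.

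Among the Bomanin relatives, BomBc3 (7.07) and BomBc2 (6.56) lay above every blank in control. Of the other short-form genes, group means were 3.25 to 3.49 for BomS2, 3.29 to 3.62 for BomS4 and 4.17 to 4.96 for BomS6, all in the blank range, with BomS6 at 4.83 in control and 4.17 in L(3)MBT. Bomanins are made mainly in the fat body of the animal. Of 5 tested fat body markers 4 were lower in L(3)MBT, where 34.6% of all probe sets were, with a median change of -0.25, and the summed linear signal of all 8 was 739 to 799 against 901 to 957 in control. In control 5 of the 8 lay above every blank, among them Fbp1 (7.65) and Lsp2 (7.44), while Fbp2 (5.0), apolpp (4.32) and Sdr (4.67) lay in the blank range. Of 5 neuronal markers 2 also lay above every blank in control, brp (7.52) and futsch (6.61). A level above the blanks was thus not particular to blood cell or fat body genes, and does not by itself show that a gene is expressed. The part of the fat body markers in the BomS5 result was not tested. In bulk RNA fewer cells of a type and less RNA per cell cannot be told apart.

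Counted by knockdown, 5 of 7 rose in E2F1 (spz, Rel, vir-1, Tep4 and AttD) against 22.9% of all probe sets higher, and 0 fell in limma, also at an unadjusted p under 0.05, against 31.3% lower. L(3)MBT called 6 of 7, with 2 higher (Rel and Tep4) and 4 lower (spz, vir-1, AttD and BomS5), against 38.9% higher and 34.6% lower overall. That background is high, so the count alone sets these genes little apart. Mip40 called 2 higher (Rel and Tep4) and 2 lower (spz and cact), against 6.99 and 8.92%. Both Lin-52 and RBFs called vir-1 and Tep4 higher and spz and cact lower, against 8.74% higher and 10.7% lower for Lin-52 and 11.5% higher and 11.9% lower for RBFs; these 2 knockdowns were not tested against each other.

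Mip120 lowered 3 genes (spz, cact and Rel, against 10.5%) and Mip130 lowered 2 (spz and cact, against 5.98%). Neither raised any in limma, where 0 also passed an unadjusted p under 0.05, against 8.67% and 5.02% of all probe sets higher. Without control replicate 3 Tep4 was called higher in both, at 0.24 in Mip120 (adjusted p = 0.0302) and 0.32 in Mip130 (0.0053; 0.17 with all arrays), and the fit without the filter called Tl and dl higher in both. E2F2 raised Tep4 (16.4% higher overall) and lowered vir-1 (9.12% lower). Myb raised vir-1 (2.36%) and lowered 0, with 1 at an unadjusted p under 0.05, against 3.43% lower. All 9 comparisons share the same 3 control arrays.

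Direct tests between knockdowns called 18 of 42 pairs of gene and comparison. Of all probe sets 2.35% (Mip120 against Mip130) to 53.0% (E2F2 against E2F1) were called in these comparisons. E2F2 and E2F1, the repressor and activator of the E2F family, gave opposite values for vir-1 against control (-0.74 and 3.02). Set against each other, 5 of 7 genes differed (53.0% of all probe sets), all lower in E2F2 than in E2F1: vir-1 by -3.77 (adjusted p = 1.01e-19), Tep4 by -1.41, AttD by -1.07, Rel by -0.58 and spz by -0.51. RBFs against E2F2 differed in 3 genes (24.9%), with vir-1 higher by 1.92 (adjusted p = 1.24e-11) and Tep4 by 0.35 (0.00421) in RBFs and spz lower by -0.59 (2.4e-05). The E2F2 mean of vir-1 (6.06) was not above the highest blank of that group (6.24), though above its median blank (4.27). The size of both vir-1 differences in transcript level is therefore not settled, and neither is given as a bound.

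Within the Myb-MuvB subunits, Mip120 and Mip130 differed in 0 of the 7 genes in limma (2.35% of all probe sets). There 1 gene, Rel, passed an unadjusted p under 0.05, and the differences ran from -0.23 to 0.19. Mip40 and Mip130 differed in 4 genes (10.2%): spz was lower by -0.62 in Mip40 (adjusted p = 2.15e-05), and Rel (0.45), Tep4 (0.40) and cact (0.27) were higher. Lin-52 and Mip40 differed in 3 (13.1%): spz by 0.62 and vir-1 by 0.80, both higher in Lin-52 (adjusted p = 1.39e-05 and 0.000124), and Rel by -0.32 (0.00356; 0.0574 without Mip40 replicate 3). Myb and Mip130 differed in 3 (12.4%), with spz (0.47), cact (0.38) and vir-1 (0.48) higher in Myb. The vir-1 difference (adjusted p = 0.0208) was lost without Mip130 replicate 1 or Myb replicate 1 or 2, up to 0.126.

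The wider immune lists held 58 further tested genes. In E2F1 20 rose and 7 fell, beside 22.9% higher and 31.3% lower of all probe sets, with a median change of 0.07 against -0.05. In L(3)MBT 20 rose and 25 fell, beside 38.9% and 34.6%, with a median of -0.01 against 0.02. Counts elsewhere were lower: 9 rose and 2 fell in E2F2 (16.4% and 9.12% of all probe sets), and 9 and 6 in RBFs (11.5% and 11.9%). In Lin-52 they were 7 and 5 (8.74% and 10.7%) and in Mip40 5 and 7 (6.99% and 8.92%). In Mip120 they were 5 and 4 (8.67% and 10.5%) and in Mip130 2 and 4 (5.02% and 5.98%). In Myb 5 fell (3.43%).

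Of the Imd pathway 16 genes were tested, Rel included. In E2F1 9 rose (median change 0.24; 22.9% of all probe sets were higher), and in L(3)MBT 10 rose and 2 fell (median 0.37; 38.9% higher and 34.6% lower). The gene key, for the regulatory subunit of the IkappaB kinase that acts on Relish, rose by 1.00 in E2F1 (SE 0.135, adjusted p = 2.16e-07), by 0.57 in L(3)MBT and by 0.55 in RBFs. PGRP-LE, an intracellular peptidoglycan receptor, rose by 0.63 in E2F1. akirin, a nuclear partner of Relish, rose by 0.91 in L(3)MBT, and ben, a ubiquitin-conjugating enzyme, by 0.56.

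Of the Toll pathway, 6 genes of recognition and the protease cascade were tested. In L(3)MBT 2 rose and 4 fell (2 and 2 with each array centred on its median), including the protease gene spirit (-0.57, adjusted p = 2.5e-09), and in E2F1 2 rose and 1 fell, with GNBP2, of the glucan-binding protein family, up by 0.55 (2.98e-08). Among 12 genes of receptors, ligands and cytoplasmic signalling, spz and cact included, 3 rose and 5 fell in L(3)MBT, but 5 rose and 2 fell when each array was centred on its median. In E2F1 2 rose and 2 fell. Mip130 lowered 4 of the 12 (spz, cact, tub and pll, against 5.98% of all probe sets). Both Mip40 (8.92%) and RBFs (11.9%) lowered 3 (spz, cact and pll). The Mip130 number was 3 under quantile normalization and with median centring, and 2 of 26 without the filter. That of RBFs was 2 with median centring and 3 in the other 2 settings, and that of Mip40 was 3 in each. Beside both Toll lists, 38.9% of all probe sets were higher and 34.6% lower in L(3)MBT, and 22.9% and 31.3% in E2F1.

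Of 9 tested JAK-STAT genes, vir-1 included, 5 rose in E2F1 (22.9% of all probe sets were higher) and 5 rose in Lin-52 (8.74%). In L(3)MBT 3 were higher and 1 lower, beside 38.9% and 34.6% of all probe sets. Traf-like rose by 0.85 in L(3)MBT (adjusted p = 2.75e-09) and by 0.81 in E2F1 (7.8e-09), and is counted among the rises of both. Its group means lay above the array medians only in L(3)MBT (6.77) and E2F1 (6.73). It therefore entered the test through the same groups in which it rose, and its control mean of 5.91 lay within the blank range. Ptp61F, a phosphatase that restrains the pathway, rose by 0.73 in L(3)MBT (1.08e-11).

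The antimicrobial peptide and Bomanin list had 7 tested genes, AttD and BomS5 included. All 7 fell in L(3)MBT, where 34.6% of all probe sets were called lower, with a median change of -0.62. After BomS5 the largest falls were those of the drosomycin-like gene Drsl6 (-0.78, adjusted p = 1.2e-12), the diptericin gene DptB (-0.70, 5.7e-09) and BomBc3 (-0.62, 2.53e-09). The number called lower was 4 under quantile normalization and 5 with median centring, and none rose in either. The lower blanks and wider spread of the L(3)MBT arrays moved with these falls, and their part was not tested. In E2F1 1 of the 7 rose (AttD) and 1 fell, beside 22.9% and 31.3% of all probe sets.

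**Figure D3:**
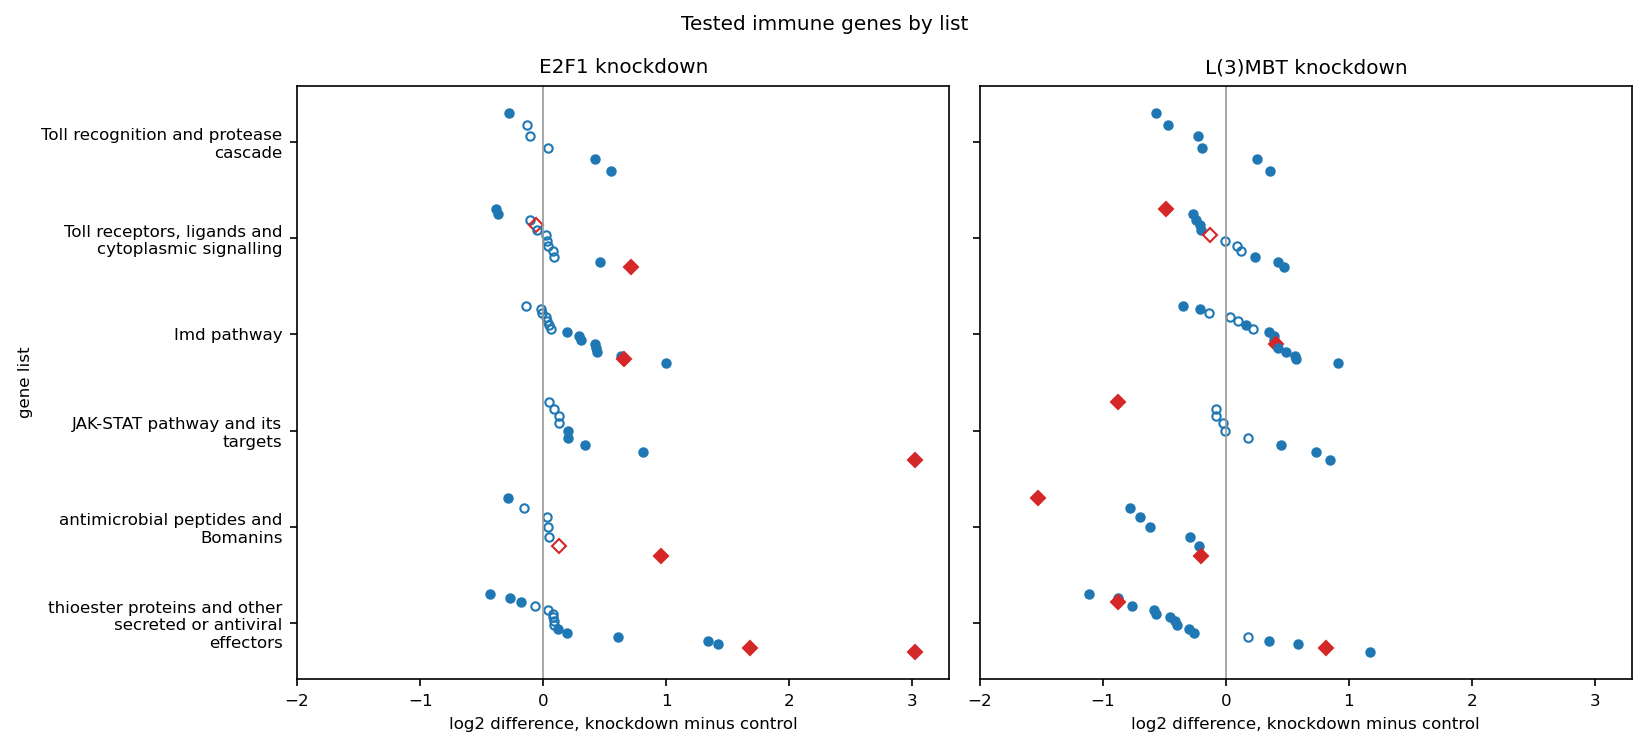
Log2 change (knockdown minus control, horizontal axis) of each tested gene of the 6 immune lists (vertical axis) in the E2F1 and L(3)MBT knockdowns, with filled symbols for called genes, open symbols for the rest, and red diamonds for the genes followed here. In L(3)MBT all 7 antimicrobial peptide and Bomanin genes lie left of 0, while 10 of 16 Imd genes were called to its right. Of all probe sets 34.6% were called lower and 38.9% higher there.

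Among 16 thioester proteins and other secreted or antiviral effectors, vir-1 and Tep4 included, 7 rose and 3 fell in E2F1 and 4 rose and 11 fell in L(3)MBT. Of all probe sets 22.9% rose and 31.3% fell in E2F1, and 38.9% and 34.6% in L(3)MBT. The group mean of LysX, a lysozyme gene, lay above the array medians only in E2F1 (6.72), so it entered the test through that group. Its control mean of 6.12 lay within the blank range. Without the filter 21 genes of this list were tested, with 5 higher and 4 lower in E2F1 and 4 higher and 14 lower in L(3)MBT. Sting, an adaptor of antiviral signalling, rose by 1.42 in E2F1 (2.67-fold, adjusted p = 1.25e-13), 1.17 in L(3)MBT, 0.64 in Lin-52 and 0.53 in Mip40. GILT1, related to a lysosomal thiol reductase, rose by 1.34 in E2F1, 0.80 in Mip40, 0.64 in RBFs, 0.59 in L(3)MBT and 0.52 in Lin-52. Glt, a basement membrane glycoprotein and no immune effector, fell by 1.24 in RBFs, 1.21 in Mip40, 1.12 in Lin-52 and 0.85 in Myb and rose by 0.54 in E2F2. The lysozyme gene LysS fell by 1.11 in L(3)MBT (adjusted p = 1.31e-17). LysB, LysD, LysE, LysP and LysX, also tested in this list, had lower means in L(3)MBT than in control. Close lysozyme paralogs may share probes, so these falls may not be separate evidence.

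Some markers of other blood cell states also moved in E2F1, where 22.9% of all probe sets were higher and 31.3% lower. Of 6 tested lamellocyte markers 4 rose (mthl4, rhea, cher and msn, median change of the 6 0.68). The summed linear signal of all 7 was 2040 to 2150 against 1370 to 1390 in control. The tested markers atilla (6.86 in control and 6.70 in E2F1) and PPO3 (7.92 and 7.96) were not called, and ItgaPS4 stayed in the blank range (3.19 and 3.58). Of 11 tested plasmatocyte markers 5 rose and 4 fell. Among the rises was eater, a phagocytic receptor gene, higher by 2.04 from a control signal in the blank range (5.41). The size of its change in transcript level is therefore not settled. The group mean of eater lay above the array medians only in E2F1 (7.45), so it entered the test largely through that group. Pxn fell by 2.62, while the summed signal of all 14 markers was 12300 to 12800 against 11500 to 12700. Of 4 crystal cell markers, the tested one, PPO2, fell by 0.18 in E2F1 (from 7.32 to 7.14), and the factor lz stayed in the blank range (3.57 in control and 3.54 in E2F1). The part of these markers in the E2F1 rises of vir-1, Tep4, AttD, spz and Rel was not tested.

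Genes of the most similar level over the 10 group means were found by Pearson's r among 6392 tested genes. These values describe points that share arrays and control, and carry no test. For vir-1 they were prage (0.98) and CG42327 (0.979), for Tep4 oys (0.976) and Gclc (0.972), a subunit of the enzyme that makes glutathione precursor, and for AttD Nepl9 (0.986) and the cytochrome P450 gene Cyp6a9 (0.982). BomS5 was matched by Mst84Dc (0.998) and CR17567 (0.994). Mst84Dc read 7.57 in control and 6.78 in L(3)MBT, and CR17567 6.96 and 6.29, so a single group sets these correlations. For spz they were CG8026 (0.96) and CG9416 (0.955), for cact O-fut2 (0.952) and SerRS (0.886), and for Rel the histone acetylation adaptor gene Ada2b (0.949) and key of the Imd pathway (0.932). Among the 7 genes themselves, Rel and Tep4 (0.881) and vir-1 and AttD (0.876) were the most alike.

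**Figure D4:**
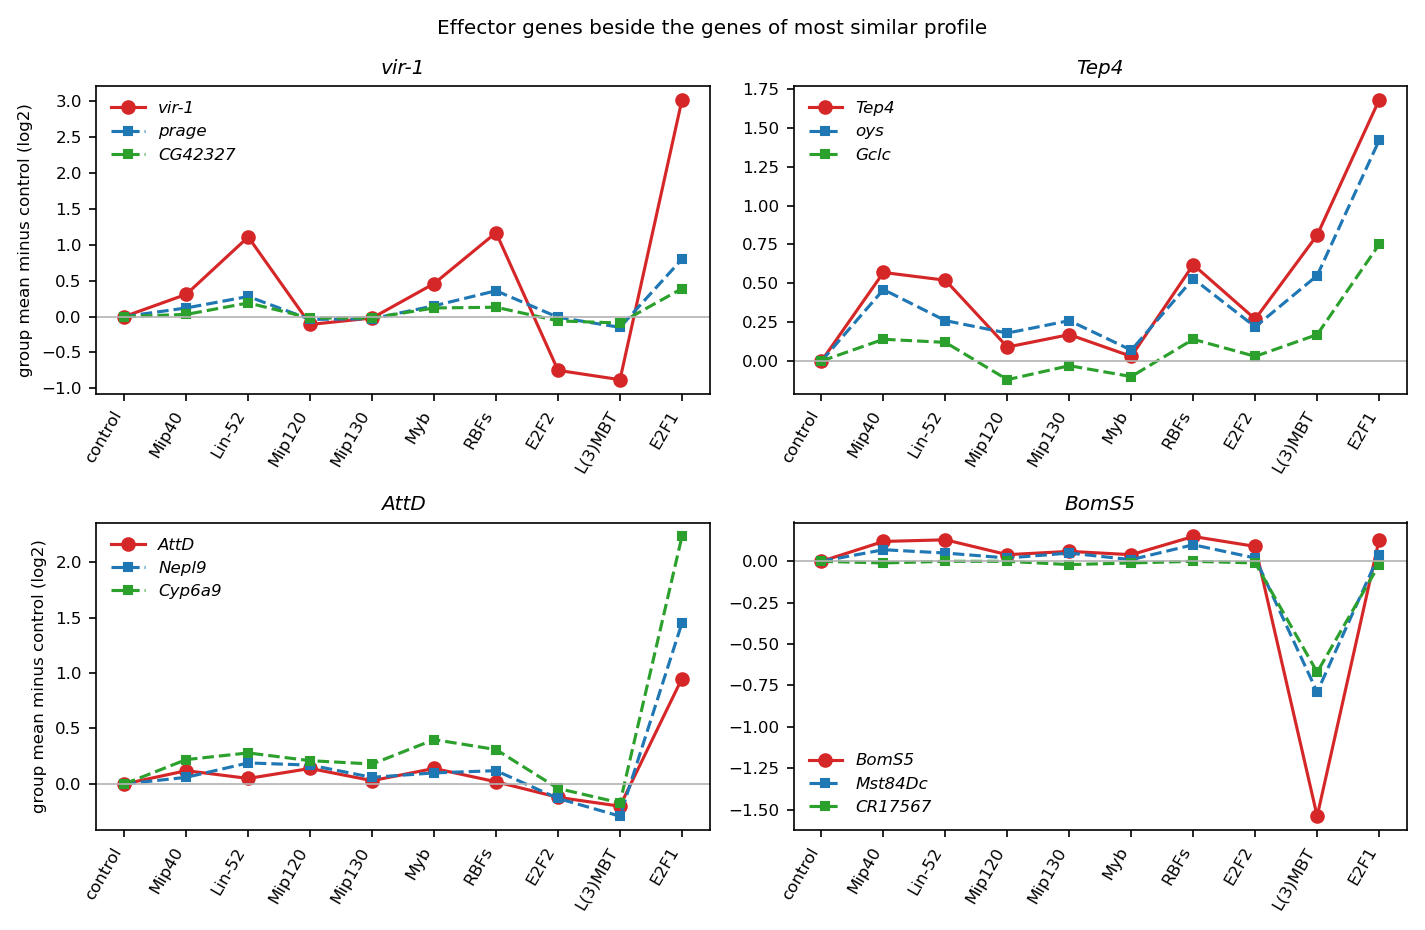
Group mean minus control (log2, vertical axis) over the 10 groups (horizontal axis) for vir-1, Tep4, AttD and BomS5, each beside the 2 genes of most similar profile (squares, dashed). For AttD, Cyp6a9 went from 6.09 in control to 8.32 in E2F1, a larger step than that of AttD, while prage and CG42327 followed vir-1 over a narrower range.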

How the data were processed

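Each of the 30 arrays has 1 deposited value for every probe set. The range of 1.95 to 13.6 points to a log2 scale. How the authors summarised and normalised these log2 values before they were deposited, and the log base itself, are not given in the sources used here. Per the labels, cRNA was made from 10 micrograms of total RNA, and the submitters' processing notes name GCOS 1.2.0. Values were used as deposited.

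From 14010 probe sets, 44 controls were left out and 7794 entered the test, those higher than the array median on 3 or more arrays. GEO's platform annotation paired 12443 probe sets with 1 gene and 327 with several, which were not named, and 12393 gene IDs were found in the reference table. All 30 arrays entered a single fit of group means in limma 3.58.1 under R 4.3.3, using lmFit and then eBayes with its trend option and 20 residual degrees of freedom. It gave two-sided p-values, Benjamini-Hochberg adjustment over all tested probe sets within each of 9 comparisons with the control and 6 direct ones, and a threshold of 0.05. Tables and figures used Python 3.11.15, pandas 2.3.3, numpy 2.4.6 and matplotlib 3.10.9. The steps were tested on simulated data.

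The genes, lists, comparisons and tests were chosen with earlier results of these data known. Besides the 10 genes, the text names called genes of the immune lists with a change of at least 0.5 (up to 4 a list), the 2 genes most similar to each over the group means, and markers. Marker genes printed as levels (Hml, NimC1, Sr-CI, crq, eater, Pxn, lz, PPO2, atilla, PPO3, ItgaPS4, Fbp1, Fbp2, Lsp2, apolpp, Sdr, brp and futsch) and the Bomanin relatives were picked from their lists after values were seen. Replicate numbers were checked as pairs: the correlations of same-numbered deviations were 0.21, 0.401 and 0.58 for Myb against control and not all over 0.1 in any other comparison, so the blocked value stands beside the Myb result. Alternatives were other scalings, other filters, the 6 arrays of a comparison alone, a replicate block, the other vir-1 probe set and leaving out each replicate. Cyclic loess and a fit without the L(3)MBT arrays were chosen after seeing the data. The number of arrays limits the precision.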

Additional observations from a re-analysis of the deposited data

How the results depend on the processing

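Of 49 called pairs of gene and comparison, 36 kept their call in every setting run for their comparison and 13 lost it in at least 1; there were 40 settings over all comparisons. Of the uncalled pairs, 14 were called in some setting and 42 in none. The cause of these moves was not tested, except that the fit without the filter also tests Tl and dl. Without the filter the number of genes called was 5 in Mip120 and 4 in Mip130 against control, 5 in Myb against Mip130, and 0 in Myb against control, where it was also 0 with median centring and with a replicate block over all arrays and 0 to 1 when each replicate was left out. For E2F2 against control it was 1 from the 6 arrays alone and 1 with a replicate block within them, and 1 to 3 when each replicate was left out; Tep4 was lost without control replicate 1 or 2 or E2F2 replicate 1 or 3, while spz was gained without control replicate 1 (0.28) and cact without E2F2 replicate 1 (-0.21) or control replicate 3 (-0.22). For Mip120 against Mip130 it was 1 (Rel) from the 6 arrays alone and 2 (spz and Rel) with the block within them. The fit of 6 arrays alone also ended the calls of spz in Mip120, cact in Mip40, Lin-52 and RBFs, Tep4 in E2F2 and AttD in L(3)MBT. Leaving out the L(3)MBT arrays, which stood apart, ended no call in the other comparisons. The same replicate numbers did not pair the samples outside Myb against control. The change of vir-1 in Lin-52 turned to -0.01 in the second, dim probe set. That of Tep4 in Mip120 (0.09, not called) ranged from -0.0034 to 0.24 when each replicate was left out, and was called at 0.24, without control replicate 3.

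Median centring moved the median of all probe sets in L(3)MBT to 0.12 from 0.02. The share of L(3)MBT calls that were higher was 52.9% as deposited, 45.1% under quantile normalization and 65.3% with median centring. For E2F2 it was 64.2% as deposited, 50.5% under quantile normalization and 77.2% with median centring, and for E2F1 42.2% as deposited and 53.0% under cyclic loess. Signals within the blank range (Tl, dl, the second vir-1 probe set, BomS5 in L(3)MBT and vir-1 in E2F2) give no order of transcript level.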
